A study of Homo sapiens with 6 samples.

Results

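GC-rich open regions that lie between genes, yet within reach of one, made up 1964 of the 49519 regions that were open in at least 1 library, or 3.97%. They were found by merging the lists of open regions of the 6 ATAC-seq libraries on chromosomes 1 to 22 and X wherever regions overlapped or touched, and by keeping merged regions whose centre lay outside every gene of GENCODE release 44, between 2 and 100 kb from the nearest start of a protein-coding gene, and whose hg38 sequence held at least 52% G and C. No measured value entered this choice other than that a region was called somewhere. The cells were MCF10A, an established non-tumorigenic line of human mammary epithelium grown with EGF, hydrocortisone, cholera toxin, insulin and horse serum. All 3 groups were first kept for 30 min in a phosphate-free buffer (HHBSS) and then held in it for another 30 min, either as untreated control, with 50 μM TPA, a chelator that takes up Zn2+, or with 30 μM ZnCl2, and 2 libraries were made for each. The study's text calls these replicates biological in one place and technical in another, so the p-values below measure the spread between libraries, which may be technical.

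Regions of this kind are the usual place of enhancers, stretches of DNA that bind transcription factors and act on a promoter at a distance, and of insulators, where CTCF binds and helps to hold chromatin loops together. CTCF, the SP and KLF factors that bind GC boxes, and MTF1, which binds the metal response element (MRE) and switches on metallothionein genes when Zn2+ rises, are all zinc-finger proteins, whose DNA-binding domains fold around Zn2+ ions. AP-1, a pair of FOS and JUN proteins, binds DNA without zinc and is abundant at enhancers of epithelial cells. The question that the series addresses is how chromatin responds within 30 min when the labile Zn2+ of the cell is lowered or raised.

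Sequence of 3 members is shown here because their ranks followed the treatments in opposite directions, as described further on. Each is the central 300 bases of the region, on the plus strand of hg38, and capitals mark a match to a GC box (GGGCGG), an AP-1 site (TGANTCA) or the core of an MRE (TGCACNC or TGCGCNC) on either strand, or to the CTCF consensus.
METRNL (chr17:83073841-83074140): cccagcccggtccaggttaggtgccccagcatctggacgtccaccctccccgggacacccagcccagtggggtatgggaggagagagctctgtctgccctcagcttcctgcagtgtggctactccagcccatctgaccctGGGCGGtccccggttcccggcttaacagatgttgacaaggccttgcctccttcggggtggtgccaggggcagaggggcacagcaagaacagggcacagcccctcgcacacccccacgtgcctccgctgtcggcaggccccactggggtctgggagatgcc
RPL3 (chr22:39291496-39291795): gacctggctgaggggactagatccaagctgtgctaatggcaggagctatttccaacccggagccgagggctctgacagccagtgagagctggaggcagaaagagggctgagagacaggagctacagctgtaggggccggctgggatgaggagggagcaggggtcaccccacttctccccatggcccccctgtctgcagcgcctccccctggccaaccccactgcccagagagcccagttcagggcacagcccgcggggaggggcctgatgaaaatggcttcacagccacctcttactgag
PAK4 (chr19:39112131-39112430): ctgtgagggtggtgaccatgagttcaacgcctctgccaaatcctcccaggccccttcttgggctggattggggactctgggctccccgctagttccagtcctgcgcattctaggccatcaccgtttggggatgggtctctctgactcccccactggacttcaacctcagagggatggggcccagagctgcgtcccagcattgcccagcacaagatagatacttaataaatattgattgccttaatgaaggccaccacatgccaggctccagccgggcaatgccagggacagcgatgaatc
The windows near METRNL and RPL3 ranked lowest with TPA and highest with ZnCl2, and the former held 1 GC box, at bases 141 to 146 of the window. The reverse order was seen in the window near PAK4. No match stood in the windows near RPL3 and PAK4, which says only that these letters were not in them. In the central 500 bp, the region near RPL3 held 1 MRE core and that near PAK4 1 AP-1 site. G and C made up 67.3%, 63.7% and 57% of these 3 windows.

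Matches to the CTCF consensus are shown for 8 members whose call followed the treatment, with 12 bases on either side and the match in capitals, read along the strand of the consensus. They were chosen after the values were seen, from the 15 members with such a match that were lost with TPA or gained with ZnCl2.
GOLGA6D (chr15:75299401-75299436, minus strand): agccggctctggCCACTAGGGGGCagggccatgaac
PRAM1 (chr19:8506298-8506333, minus strand): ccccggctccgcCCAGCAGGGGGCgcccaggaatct
UBE2V1 (chr20:50071431-50071466, minus strand): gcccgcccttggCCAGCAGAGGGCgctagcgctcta
CPLX2 (chr5:175729963-175729998, plus strand): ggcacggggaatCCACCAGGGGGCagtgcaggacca
GOLGA8Q (chr15:30567059-30567094, minus strand): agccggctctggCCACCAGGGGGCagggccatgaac
SIVA1 (chr14:104768674-104768709, plus strand): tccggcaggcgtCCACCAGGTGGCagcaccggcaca
SLC2A6 (chr9:133486477-133486512, minus strand): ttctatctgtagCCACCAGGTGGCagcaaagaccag
KRTCAP2 (chr1:155167500-155167535, minus strand): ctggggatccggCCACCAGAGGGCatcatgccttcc
The first 4 belong to members called in both control libraries and in neither TPA library, and the last 4 to members that both ZnCl2 libraries and no control library called, in lists of equal length. Near SIVA1, SLC2A6 and KRTCAP2 the call of ZnCl2 replicate 2 had a low score, as the percentiles given further on show. The sites near GOLGA6D and GOLGA8Q differ at 1 of 36 bases, and both lie in sequence that occurs more than once in the genome.

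A region counted as called in a library when at least 1 bp of a region in that library's list fell in it. The lists held between 18883 and 44637 regions. ZnCl2 replicate 2, at 18883, and control replicate 1, at 25025, had the shortest lists and stood apart from the others in yield. The others ran from 35900 in TPA replicate 1 to 44637 in control replicate 2. Read counts were not analysed here, and the depth of the libraries is unknown. Comparisons were therefore made with whole lists and at equal list length, that is, with the 18883 regions of highest score in each. A call means that a place was open in enough of the culture to be detected, and fewer open cells cannot be told apart from less open chromatin in each cell. The window of 1 kb on either side of the start was called in all 6 libraries for 4 of 12 genes that mark basal mammary epithelium. For TP63 it was called in none, and for the rest of the 12 in 3 libraries (CDH1) to 5 (such as KRT5). It was called in no library for any of 6 blood genes and, of 6 genes of other organs, for GFAP alone, in 1 library. FOXA1, KRT8 and KRT18, genes of the luminal lineage, were called in all 6, and ESR1, PGR and GATA3 in none.

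The median member was 1930 bp wide, held 55.5% GC and lay 21920 bp from the nearest coding start, and 1281 of them (65.2%) lay on its upstream side. Their median ratio of observed to expected CpG was 0.311, and 213 (10.8%) exceeded 0.6, a ratio typical of CpG islands. In the 6037 GC-rich regions within 2 kb of a start, 58.7% exceeded it. GC-poor regions chosen by the same rule with less than 52% GC numbered 6414 and had medians of 1520 bp and 0.205 for width and ratio. The members were thus GC-rich without being mostly CpG islands. Chromosome 22 held the largest share, with 110 members among its 939 open regions (11.7%), followed by chromosome 19 with 7.55% and chromosome 17 with 7.01%, while chromosome 13, at 1.58%, and chromosome 4, at 1.62%, held the smallest. Sequence present in more than 1 copy was common: in 216 members (10.998%) at least 5 of 10 pieces of 31 bp were found more than once in the genome, against 6.21% of the GC-poor regions and 5.76% of all.

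Of the members, 549 were called in all 6 libraries, 248 in 5, 244 in 4, 201 in 3, 305 in 2 and 417 in only 1. ZnCl2 replicate 1 alone brought in 254 of these single calls and control replicate 2 another 83, against 2 to 47 in the other 4 libraries. In whole lists, 87.5% and 36.1% of the members were called in the ZnCl2 replicates, 41.2% and 78.9% in those of the control and 56.98% and 62.9% in those of TPA. Both extremes belonged to ZnCl2, and the groups overlapped. ZnCl2 replicate 1 called more of the members than control replicate 2 although its list was the shorter, at 38055 against 44637 regions.

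At equal list length the GC-rich intergenic regions were called most with ZnCl2 and least with TPA, as were GC-rich regions inside genes and at starts. The TPA replicates called 28.9% and 26.4% of the GC-rich intergenic regions, the control replicates 30.96% and 29.1% and the ZnCl2 replicates 40.5% and 36.1%. The groups did not overlap, although TPA replicate 1 and control replicate 2 lay close together. Group means were 27.7% ± 1.76 for TPA, 30.0% ± 1.33 for the control and 38.3% ± 3.13 for ZnCl2 (SD, n = 2 in each). ZnCl2 minus control, 8.30 percentage points, exceeded the replicate spread, and TPA minus control, -2.34, was close to it. A test of 2 libraries against 2 cannot give a p below 0.333, which each of the 3 pairs of groups reached (two-sided exact permutation test, adjusted p = 0.6 over 18 such comparisons). Over the order TPA, control and ZnCl2 the percentage rose by 5.32 points a step (two-sided exact permutation test over 90 arrangements of the libraries, p = 0.0222, the smallest this design can give, and 0.0444 adjusted over 6 measures). The order runs from chelator to added Zn2+, and it was chosen with earlier results of these data known. The p-values of this and the later steps do not account for that choice. Leaving out 1 library at a time gave steps of 3.95 to 6.28 points, with p = 0.0333 without either ZnCl2 library and 0.0667 without any one of the others in the same exact test. The step was 0.916 points in whole lists (p = 0.911, exact permutation test), 1.57 points in the upper 50% of the equal lists (p = 0.111, exact permutation test) and 8.96 points where at least 50% of the region had to be covered (p = 0.0667, exact permutation test).

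**Figure D1:**
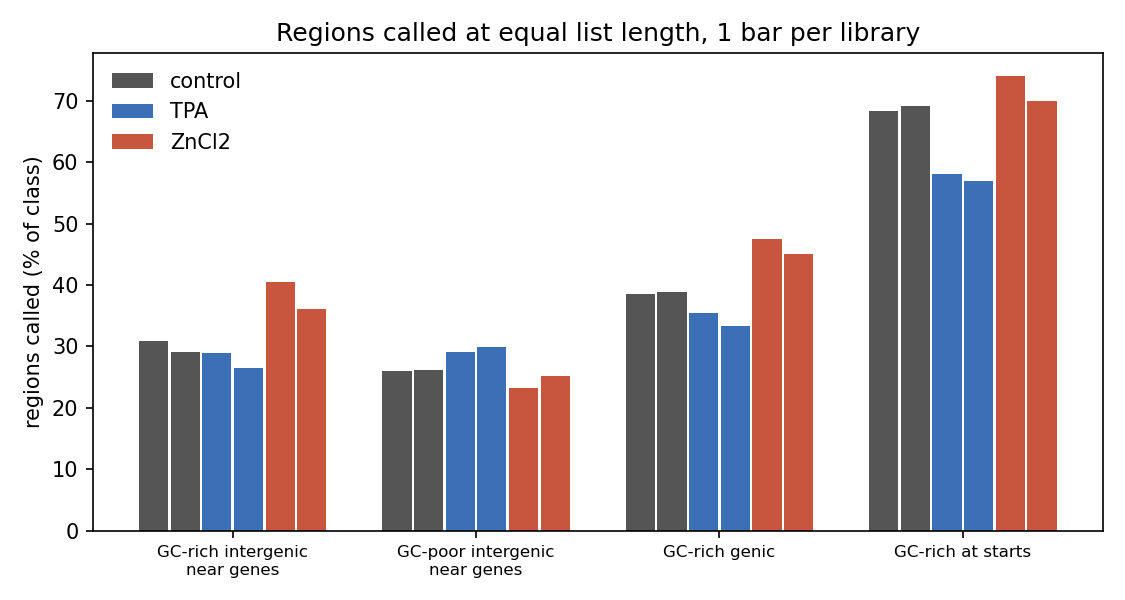
The percentage of each class of merged regions (vertical axis) that was called at equal list length, with 1 bar for each library, replicate 1 to the left of replicate 2. The GC-rich intergenic regions near genes run from 26.4% in TPA replicate 2 to 40.5% in ZnCl2 replicate 1, and the GC-poor ones run the other way, from 23.3% in ZnCl2 replicate 1 to 29.9% in TPA replicate 2.

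Members taken as a share of all open merged regions behaved in the same order. They made up 3.43% and 3.60% in the control, 3.31% and 3.16% with TPA and 4.79% and 3.90% with ZnCl2, with no overlap between the groups. The share rose by 0.554 points a step (two-sided exact permutation test, p = 0.0222, adjusted p = 0.0444 over 6 measures). The shares at equal list length were 3.39% and 3.11%, 3.14% and 2.85%, and 4.40% and 3.90%, and TPA replicate 1 then stood above control replicate 2. In whole lists, GC-rich regions inside genes had the same order without overlap. Their shares were 12.95% and 11.7% in the control, 11.3% and 10.7% with TPA and 15.2% and 15.2% with ZnCl2. For GC-rich regions at starts the groups overlapped, at 19.9% and 13.4%, 14.8% and 13.3%, and 16.3% and 23.2%. The share of the members was not tested against these classes. Since a region enters the members through any 1 library, the percentages were also computed for the members called in a control library, an alternative chosen after the data were seen. The step at equal list length was then 6.17 points (two-sided exact permutation test, p = 0.0222), and in whole lists it was -1.40 points (p = 0.889, exact permutation test). For these members the share of open regions rose by 0.429 points a step (two-sided exact permutation test, p = 0.0222). ZnCl2 minus control in the share was then 0.349 points, where it was 0.828 over all members. Without the 216 regions of repeated sequence the step in the percentage called at equal list length was 4.63 points (two-sided exact permutation test, p = 0.0444).

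GC-poor regions in the same position moved the other way. The GC-poor intergenic regions were called at 26.0% and 26.2% in the control, 29.1% and 29.9% with TPA and 23.3% and 25.2% with ZnCl2. Both TPA libraries were thus above, and both ZnCl2 libraries below, the control libraries. The members exceeded them by 4.94 and 2.88 points in the control, -0.172 and -3.48 points with TPA and 17.3 and 10.9 points with ZnCl2. This difference rose by 7.95 points a step (two-sided exact permutation test, p = 0.0222, adjusted p = 0.111 over 5 comparisons with other classes, where no single one could fall below 0.05). Against GC-rich regions inside genes, 2 kb or more from a start, the difference between the classes moved by -0.619 points a step (two-sided exact permutation test, p = 0.378), and against GC-rich regions at starts by -1.95 (p = 0.4, exact permutation test). A step of the members apart from that of other GC-rich regions was thus not detectable with 6 libraries, which does not show that they responded alike. A step over the 3 groups does not show a difference that both treatments share. The members minus the GC-rich regions at starts gave -37.5 and -40.1 points in the control, -29.1 and -30.6 with TPA and -33.6 and -33.9 with ZnCl2, without overlap, and TPA minus control was 8.94 points (exact permutation test, two-sided, with the smallest possible p of 0.333 and an adjusted p of 0.417 over 15 comparisons). The members were thus called less often than regions at starts in each library, by the narrowest margin with TPA.

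The spread with treatment was wider among the members richest in GC. Among 623 members of 52 to 54% GC, the mean percentage called was 28.4% with TPA, 29.9% in the control and 36.2% with ZnCl2. For 470 members of 54 to 56% the values were 30.9%, 31.4% and 39.0%, and for 525 members of 56 to 60% they were 28.8%, 30.4% and 38.4%. The 261 members of 60 to 65% gave 24.1%, 31.4% and 44.3%. In the 85 members of 65% and more the TPA libraries called 9.41% and 8.24%, the control libraries 17.6% and 16.5% and the ZnCl2 libraries 32.9% and 29.4%. ZnCl2 minus TPA was 7.78, 8.19, 9.62, 20.1 and 22.4 points from the lowest to the highest class, a description for which no test was made. These classes hold all members, among them the 254 called in ZnCl2 replicate 1 alone, which can raise the percentage of that library only. Of the 85 members of 65% and more, 12 were called in all 6 libraries. The gradient was not computed for members called in a control library. Distance gave no such gradient, with 12.2 points at 2 to 5 kb, 11.6 at 5 to 10 kb, 9.12 at 10 to 25 kb, 11.4 at 25 to 50 kb and 10.4 at 50 to 100 kb. At the threshold itself, the 338 members of 52 to 53% were called at 24.9% to 35.8% over the libraries and the 359 regions of 51 to 52% just outside at 27.6% to 33.1%.

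**Figure D2:**
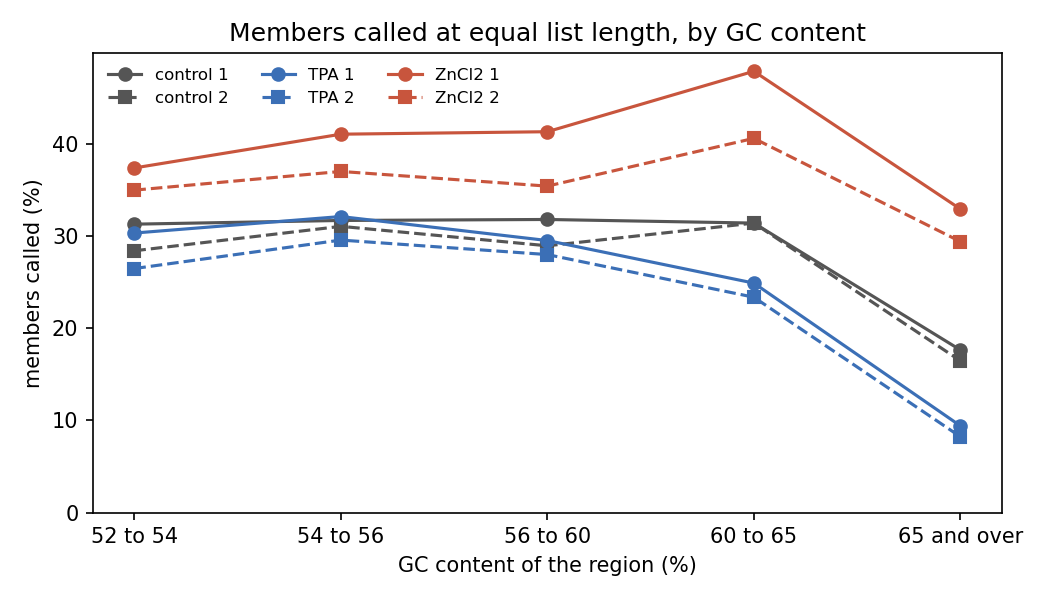
The percentage of members called at equal list length (vertical axis) in 5 classes of GC content (horizontal axis), with 1 line per library, solid for replicate 1 and dashed for replicate 2. The lines of the 3 groups lie closest at 54 to 56% GC or below and separate at 60% and above, where the TPA lines fall below and the ZnCl2 lines stay above the control.

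Rank within the list gave a second readout. The score percentile of a region is the percentage of its library's regions with a lower score, and it was compared over the 549 members called in all 6 libraries. The median percentile was 58.9% and 74.7% in the control, 72.2% and 71.1% with TPA and 76.3% and 51.1% with ZnCl2, with no order by group (two-sided exact permutation test of the step, p = 0.511). The shortest lists, those of ZnCl2 replicate 2 and control replicate 1, gave the lowest values. The 1342 GC-poor regions called in all 6 libraries provide a comparison within each library, and their medians were 58.9% and 74.7%, 74.2% and 77.4%, and 67.5% and 38.5%. The difference, members minus GC-poor, was 0 in both control libraries, -1.94 and -6.31 with TPA and 8.72 and 12.6 with ZnCl2. Scores are whole numbers that many regions share, so exact ties such as those in the control can occur. ZnCl2 averaged 10.7 ± 2.74 and TPA -4.13 ± 3.08 (SD, n = 2 in each). The difference rose by 7.39 points a step (two-sided exact permutation test, p = 0.0222, adjusted p = 0.0444 over 6 measures). Without ZnCl2 replicate 2 the step was 7.81 (exact permutation test, p = 0.1), without control replicate 1 or 2 it was 8.05 or 7.15 (p = 0.0667 each, exact permutation test), and with all members called in the library in place of those called in all 6 it was 2.90 (p = 0.0667, exact permutation test). Set against GC-rich regions inside genes, the rank difference moved by -1.30 points a step, and against those at starts by -3.77 (two-sided exact permutation test, p = 0.2 each). For those at starts, TPA minus control was 8.63 points. A step in rank apart from that of other GC-rich regions was thus not detectable.

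**Figure D3:**
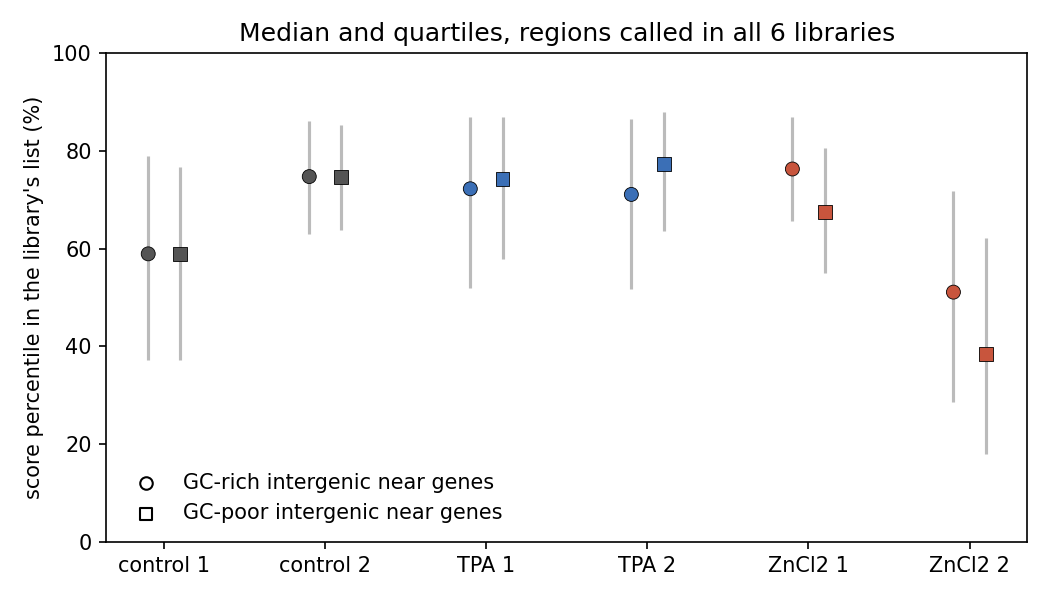
Score percentile within the library's own list (vertical axis) of the regions called in all 6 libraries, by library, as the median (symbol) and the quartiles (grey line), for 549 GC-rich intergenic regions (circles) and 1342 GC-poor ones (squares). The symbols coincide in the control libraries, the circles lie below the squares with TPA and above them with ZnCl2.

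The width called within the members was 1370 and 1360 bp in the TPA libraries. It was 1200 and 2360 bp in the control replicates and 1940 and 2020 bp in the ZnCl2 replicates, all as medians over the same 549 members. The treated replicates were close to each other and the control replicates were not, so both treatments fell inside the control range. ZnCl2 exceeded TPA by 615 bp, and the step over the 3 groups was 308 bp (two-sided exact permutation test, p = 0.222). Without control replicate 1 the difference between TPA and control was -1020 bp and without control replicate 2 it was 165 bp.

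Single members counted as gained when both treated libraries and neither control library called them, and as lost when the reverse held. The comparisons of TPA and of ZnCl2 share the control libraries. In lists of equal length, 20 members were gained and 43 lost with TPA, which is 1.02% and 2.19% of them, where 2.00% and 2.40% of all merged regions were gained and lost. With ZnCl2, 77 members were gained and 11 lost, or 3.92% and 0.560%, where all merged regions gave 1.67% and 1.92%. Gains with ZnCl2 were the only one of these 4 counts above the level over all regions. GC-poor intergenic regions gave 2.51% gained and 0.857% lost with TPA and 1.42% gained and 2.56% lost with ZnCl2, the opposite balance in each case. GC-rich regions inside genes gave 1.21% gained and 3.85% lost with TPA and 3.33% gained and 0.539% lost with ZnCl2. For GC-rich regions at starts the values were 0.911% and 8.22%, and 2.24% and 0.712%. The balance of the members was thus shared by other GC-rich regions. Without the regions of repeated sequence the members gave 20 gained and 36 lost with TPA and 66 gained and 10 lost with ZnCl2. Counts rise when fewer libraries have to agree: without control replicate 1 or 2, 131 or 123 members were gained with ZnCl2 and 27 or 45 were lost, and without ZnCl2 replicate 1 or 2 the gains were 148 or 193 and the losses 43 or 22. For TPA, leaving out control replicate 1 or 2 gave 49 or 44 gains and 87 or 106 losses, and leaving out TPA replicate 1 or 2 gave 41 or 56 gains and 75 or 60 losses.

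With whole lists the balance was not the same. There, 31 members were gained and 28 lost with TPA (1.58% and 1.43%, where all merged regions gave 2.04% and 0.701%), and 10 were gained and 5 lost with ZnCl2 (0.509% and 0.255%, where all merged regions gave 0.172% and 1.73%). Of the 10 gained with ZnCl2, 7 lay in repeated sequence. The length of the ZnCl2 and control lists, 38055 and 18883 against 25025 and 44637 regions, moves with these counts, and its part in them was not tested.

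Members gained or lost at equal list length with the highest mean percentiles had the following values. Gained with TPA was a region of 2570 bp (chr14:35365052-35367621), 38412 bp downstream of the start of NFKBIA, which encodes the inhibitor of NF-κB. Its percentile was 76.9% and 75.6% with TPA, 41.2% in control replicate 2 and 51.3% in ZnCl2 replicate 1, with no call in the remaining 2 libraries. The other, 5149 bp upstream of TNFRSF1B, a receptor for TNF (chr1:12160457-12163226), was called in all 6 libraries and ranked at 75.1% and 79.7% with TPA, 9.08% and 56.95% in the control and 76.8% and 65.1% with ZnCl2. It was high in all treated libraries, not with TPA alone.

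Lost with TPA was a region 50718 bp upstream of APOD, the gene of a lipid carrier (chr3:195634071-195635430), at 98.0% and 98.3% in the control, with no call in either TPA library, and at 92.8% in ZnCl2 replicate 2 alone of the ZnCl2 libraries. The second was 32913 bp downstream of the start of FLNA, which encodes an actin cross-linking protein (chrX:154341171-154342270), at 87.7% and 95.7% in the control and 96.5% and 93.5% with ZnCl2. It too had no call with TPA. All 10 pieces of 31 bp tested in each of these regions occurred more than once in the genome.

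Gained with ZnCl2 were a region of 320 bp 19004 bp upstream of EPN2, an adaptor of endocytosis (chr17:19196451-19196770), at 93.1% and 83.3%, and one of 540 bp 15051 bp downstream of the start of GOLGA8Q, a golgin family gene (chr15:30566831-30567370), at 92.7% and 83.3%. Neither was called in the control or with TPA, and in each 9 of 10 pieces were repeated. Lost with ZnCl2 were a region 19691 bp downstream of the start of SYT15B (chr10:47743411-47744390), at 67.0% and 83.0% with TPA and at 27.7% and 72.7% in the control, and one 24508 bp upstream of RHOB, a small GTPase (chr2:20421381-20423750). The latter ranked at 42.6% and 59.0% in the control, 84.7% and 76.5% with TPA and 38.4% in ZnCl2 replicate 1, and was outside repeated sequence.

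Among the 549 members called in all 6 libraries, the percentile was higher in both TPA libraries than in both control libraries for 160 (29.1%) and lower for 82 (14.9%), where 22.9% and 15.8% of all such regions gave these results. With ZnCl2 it was higher for 28 (5.10%) and lower for 63 (11.5%), where 2.47% and 17.6% of all did. The short list of ZnCl2 replicate 2 moved with these counts: without that library 380 members were higher and 87 lower, and without ZnCl2 replicate 1 the counts were 30 and 346. Without control replicate 1, 36 were higher and 251 lower with ZnCl2, and 173 higher and 269 lower with TPA. Without control replicate 2, 198 were higher and 78 lower with ZnCl2, and 358 higher and 102 lower with TPA. Leaving out TPA replicate 1 or 2 gave 224 or 226 members that were higher and 146 or 137 that were lower. With lists of equal length, 106 members were higher and 50 lower with ZnCl2, the reverse of the balance in whole lists. The share over all merged regions was not computed for these alternatives, so the changed balance is not read as a result about the members.

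An order in which both TPA libraries lay below both control libraries, and these below both ZnCl2 libraries, was found for 8 members (1.46%, where 0.656% of all regions called in 6 libraries had it). The reverse was found for 30 (5.46%, against 5.84% of all). The 8 and 30 were chosen by these values, which are given as a description.

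Near METRNL, which encodes a secreted factor, the region (chr17:83072291-83075690) lay 5618 bp upstream of the start and had 63.5% GC. Its percentile was 23.9% and 9.73% with TPA, 42.6% and 36.0% in the control and 85.0% and 70.6% with ZnCl2. ZnCl2 exceeded TPA by 61.0 points. At equal list length it was called in control replicate 1 and in both ZnCl2 libraries.

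The region nearest to RPL3, a protein of the large ribosomal subunit, lay 28743 bp downstream of its start (chr22:39289591-39293700). It ranked at 41.5% and 23.3% with TPA, 83.3% and 85.0% in the control and 90.4% and 87.2% with ZnCl2, so that most of its range lay between TPA and control. The width called there was 4030 and 3600 bp in the control replicates, 2440 and 2800 bp in the TPA replicates and 2960 and 1190 bp in the ZnCl2 replicates, and did not follow the percentile.

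Near HTR6, the gene of a serotonin receptor, the region (chr1:19658557-19661126) gave 26.3% and 18.1%, 37.1% and 58.0%, and 72.4% and 75.1% in the same order of groups. Near GFAP, an intermediate filament of astrocytes (chr17:44919161-44921820), the values were 0% and 3.39%, 9.08% and 14.6%, and 40.2% and 43.9%, so that it was among the lowest ranks of the TPA lists. Near ZBTB42, a zinc-finger repressor of the BTB family (chr14:104825321-104828400, 63.1% GC and 7 GC boxes in the central 500 bp), they were 28.5% and 51.8%, 60.8% and 66.5%, and 75.7% and 70.6%. Of the 5, the regions near HTR6 and ZBTB42, like that near RPL3, were called at equal list length in all 4 control and ZnCl2 libraries and in neither TPA library.

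**Figure D4:**
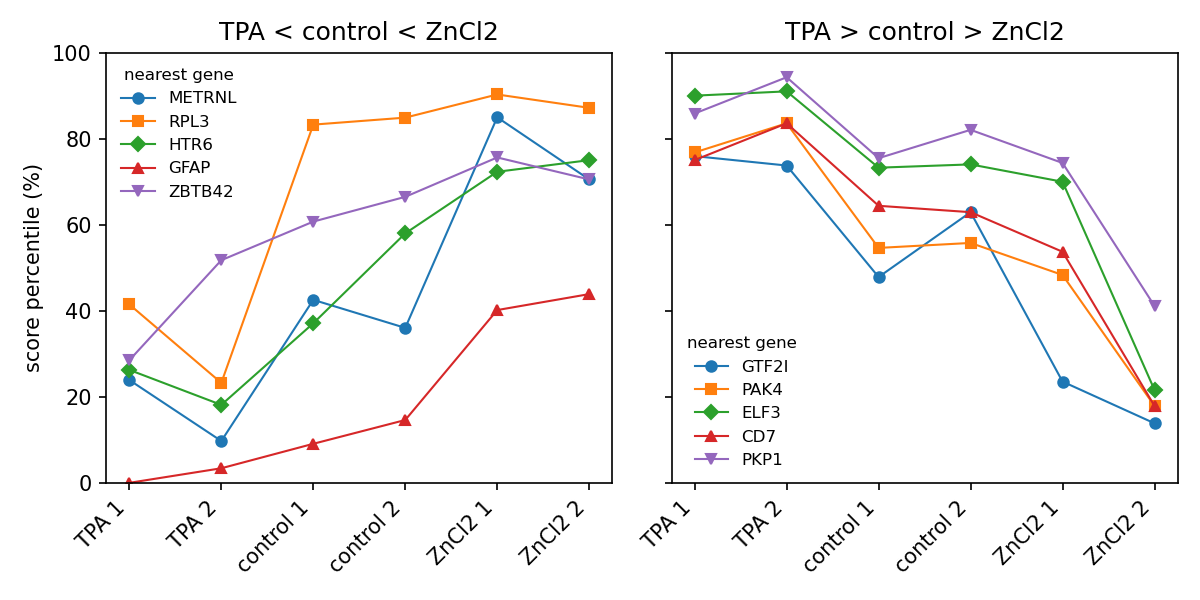
Score percentile (vertical axis) by library (horizontal axis) of the 5 members with the widest ZnCl2 minus TPA difference in each direction, among those in which the 3 groups did not overlap. On the left the values rise from TPA to ZnCl2, by up to 61.0 points near METRNL. On the right they fall, by up to 56.2 points near GTF2I, with ZnCl2 replicate 2 lowest in each.

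In the reverse order, the region near GTF2I, a general transcription factor, 39370 bp upstream of its start, ranked at 76.0% and 73.8% with TPA, 47.9% and 63.0% in the control and 23.6% and 13.8% with ZnCl2. In it 6 of 10 pieces were repeated. That near PAK4, a p21-activated kinase (chr19:39111191-39113370), gave 76.9% and 83.6%, 54.7% and 55.8%, and 48.4% and 17.9%. Near ELF3, an ETS factor of epithelial cells, the centre of the region (chr1:202014631-202019880) lay 73 bp beyond the gene, and it gave 90.1% and 91.1%, 73.3% and 74.1%, and 70.0% and 21.6%. The ZnCl2 replicate 1 values of PAK4 and ELF3 were close to the control, and the width of the order came from replicate 2.

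The remaining 2 of these 5 were near CD7, a surface protein of T cells (chr17:82295351-82299190), at 75.1% and 83.6%, 64.5% and 63.0%, and 53.8% and 17.9%, and near PKP1, a desmosomal plaque protein of stratified epithelia (chr1:201258301-201262740), at 85.9% and 94.4%, 75.5% and 82.1%, and 74.4% and 41.2%. ELF3, CD7 and PKP1 regions were called at equal list length in all 6 libraries. Their order was thus one of rank and not of calls.

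Sequence composition within the central 500 bp separated the members from the GC-poor regions, which differ from them by the rule on GC content. A GC box, which SP and KLF factors bind, stood in 741 members (37.7%), in 9.54% of the GC-poor regions and in 25.9% of all merged regions. An AP-1 site stood in 457 members (23.3%), against 46.9% and 37.4%, and an MRE core, which is short and frequent by its letters alone, in 859 (43.7%), against 29.6% and 34.0%. GC-rich regions inside genes held a GC box in 43.4%, an AP-1 site in 22.5% and an MRE core in 43.55%. The shares of these 3 motifs were thus not particular to the members. Matches to the CTCF consensus stood in 162 members (8.25%), against 3.35% of the GC-poor regions, 4.10% of the GC-rich regions inside genes, 0.861% of those at starts and 2.29% of all, so that the members held the highest share of the 4 classes. The glucocorticoid response element was found in none of the 1964 members and in 59 (0.119%) of all merged regions. A match is a sequence and not evidence of binding.

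Members with a CTCF match were called less often than the other members in each of the 6 libraries, and by the widest margin with TPA. At equal list length they were called at 37.0% and 29.6% with ZnCl2, 20.4% and 19.1% in the control replicates, and 12.96% and 11.7% after TPA. The 1802 members without a match gave 40.8% and 36.7%, 31.9% and 30.0%, and 30.4% and 27.7%. Group ranges did not overlap among the members with a match, and they overlapped between TPA and control among the others. The gap, with minus without, was -11.5 and -10.8 points in the control, -17.4 and -16.0 with TPA and -3.81 and -7.05 with ZnCl2, and it rose by 5.64 points a step (two-sided exact permutation test, p = 0.0222, adjusted p = 0.0593 over 4 motifs, which misses 0.05). The comparisons by motif, here and below, were picked after values were seen, which neither their p-values nor the adjustment over 4 motifs account for. Of the 162 members with a match, 109 were called in at least 2 libraries and 32 (19.8%) in all 6, against 28.7% of those without. Median GC content was 56.1% with and 55.4% without a match. Without repeated regions, which held 26 of the 162, the step was 5.14 points, and over the members called in a control library it was 8.45 points (two-sided exact permutation test, p = 0.0222 each). GC-poor intergenic regions with a CTCF match showed a step of the same sign, 8.14 points against GC-poor regions without one (two-sided exact permutation test, p = 0.0222). In GC-rich regions inside genes the step was 1.804 points (p = 0.156, exact permutation test), and in those at starts, of which 52 held a match, it was -2.48 (p = 0.378, exact permutation test).

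**Figure D5:**
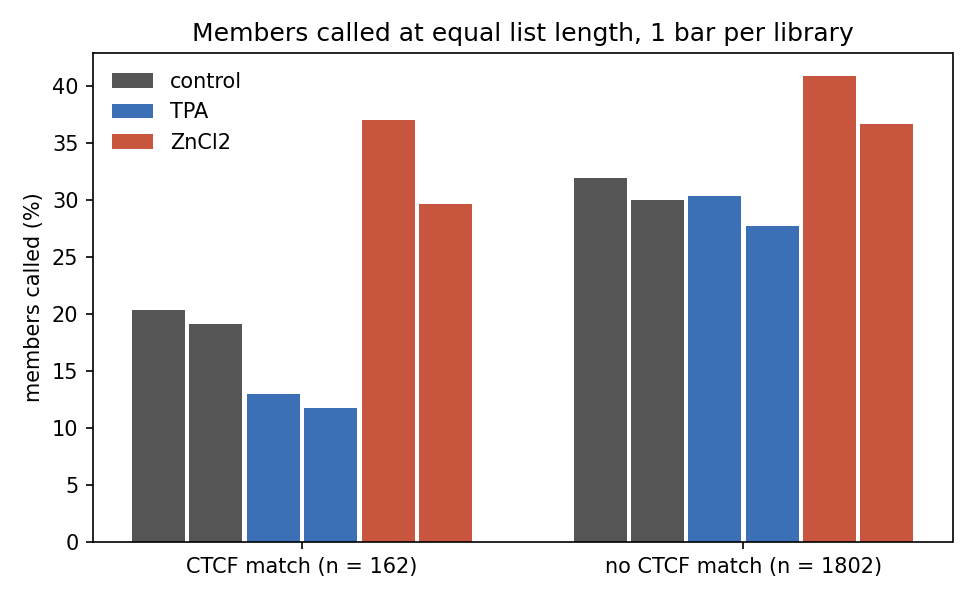
The percentage of members called at equal list length (vertical axis), with 1 bar per library and replicate 1 on the left of each pair, for the 162 members with a CTCF match and the 1802 without one. With a match the TPA bars stand at 12.96% and 11.7%, below the control bars at 20.4% and 19.1%, and the ZnCl2 bars at 37.0% and 29.6%.

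The other motifs moved less. Members with an AP-1 site minus those without differed by 1.01 and -1.96 points in the control, 7.08 and 4.63 with TPA and -2.91 and -0.278 with ZnCl2, and the step was -3.73 points (exact permutation test, two-sided, p = 0.0444, adjusted p = 0.0593 over 4 motifs). For the MRE core the step was 1.51 points (p = 0.0444, adjusted p = 0.0593, exact permutation test), and for the GC box 2.996 points (p = 0.111, exact permutation test). With a GC box the members were called at 36.4% and 35.0% in the control, 30.1% and 28.7% with TPA and 45.6% and 42.0% with ZnCl2. None of the 4 passed 0.05 after adjustment.

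Among the 43 members lost with TPA at equal list length, 5 held a CTCF match (11.6%), and among the 77 gained with ZnCl2, 10 did (12.99%), where 8.25% of all members held one. Over all merged regions the shares were 1.18% of those lost with TPA and 4.84% of those gained with ZnCl2, where 2.29% of all held one. No member gained with TPA and none lost with ZnCl2 held one, of 20 and 11, where 0.404% and 0.105% of all merged regions called so did. With so few members, nothing is read from this absence, nor from the 5 and 10 matches among those lost with TPA and gained with ZnCl2. A GC box stood in 65.1% of the members lost and in 20% of those gained with TPA, and an AP-1 site in 13.95% and 45%. Over all merged regions the shares were close to these, at 61.8% and 13.9% for the GC box and 14.8% and 49.2% for AP-1, so nothing is read from the contrast about the members. The region near CPLX2, a regulator of synaptic vesicle release (chr5:175728581-175731510), was called in all 6 libraries and ranked at 27.7% and 67.4% in the control, 35.4% and 36.3% with TPA and 73.0% and 35.2% with ZnCl2. Its lower rank with TPA held against control replicate 2 only, since control replicate 1 has the lower value. That near PRAM1, an adaptor of myeloid cells (chr19:8505151-8507350), was at 42.6% and 75.3% in the control, had 1 call with TPA, at 48.7%, and was at 75.7% and 48.9% with ZnCl2. Near UBE2V1, a ubiquitin-conjugating enzyme variant, the percentile was 27.7% and 58.0%, 33.1% and 45.4%, and 73.0% in ZnCl2 replicate 1 with no call in replicate 2. Of the 5 members lost, 4 were still called in a TPA library when whole lists were used, and the region near GOLGA6D was not.

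For the members gained with ZnCl2, the region near SIVA1, an apoptosis factor (chr14:104767891-104769970), ranked at 78.0% and 0% with ZnCl2, 37.4% and 12.6% with TPA and 47.0% in control replicate 2. Near SLC2A6, a sugar transporter (chr9:133485281-133487230), the values were 58.7% and 21.6% with ZnCl2, 13.1% and 32.2% with TPA and 4.60% and 30.6% in the control. Near KRTCAP2 (chr1:155166031-155169110) they were 65.7% and 13.8%, 71.3% and 53.2%, and 16.8% and 45.6% in the same order, with a call in TPA replicate 1 at equal list length too. A percentile near 0 in ZnCl2 replicate 2 still counts as called, because the list of that library was kept whole. Of the 10, 4 lay in repeated sequence, among them those near GOLGA8Q, GOLGA8K and GOLGA8B, whose sites differ from each other at no more than 1 of 36 bases.

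Most members of highest rank lay in repeated sequence. Naming the 5 members with the highest lowest percentile over the 6 libraries gave regions near ZNF251, GOLGA6L26, GOLGA6L22, GRAPL and GRAP, all above 99.5% in every library. In the regions near GOLGA6L26, GOLGA6L22, GRAPL and GRAP, 9 of 10 pieces occurred more than once in the genome, and in that near ZNF251, a zinc-finger gene on chromosome 8, 4 did. The region near GRAPL (chr17:19110731-19113060) ranked at 99.7% in both control libraries, 99.8% in both TPA libraries and 99.7% and 99.5% with ZnCl2. Near ZNF251 the percentile was 99.94% and 99.93% with TPA, 99.87% and 99.89% in the control and 99.80% and 99.71% with ZnCl2, so that the groups did not overlap there although the values were close to the ceiling of the measure.

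The members had 1486 nearest coding genes, of which 1161 had 1 member, 230 had 2 and 95 had 3 or more. The nearest gene names a place and does not say which gene a region acts on. SIK1, a salt-inducible kinase, and SMAD7, an inhibitor of TGF-β signalling, had 8 members each, EPS8L3, PTMA and WNT7B had 6, and GRAPL had 5. The 8 near SMAD7 all lay on chromosome 18, 4 of them were called in all 6 libraries, and at equal list length 6 and 5 were called with ZnCl2, 5 and 3 with TPA and 4 and 3 in the control. The strongest of them (chr18:48996495-48999054) ranked at 86.3% and 85.4% in the control, 94.3% and 94.4% with TPA and 83.4% and 53.2% with ZnCl2, higher with TPA than in any other library. Another (chr18:48871415-48874174) was at 39.9% and 49.7%, 80.0% and 76.5%, and 70.0% and 41.2%.

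Around WNT7B, a secreted Wnt ligand, 4 of 6 members were called in all libraries. The region 59274 bp upstream of its start (chr22:46035251-46037620) lay between 90.7% and 95.9% in the 6 libraries, and the one 35484 bp upstream (chr22:46009951-46015340) between 75.1% and 94.8%, with ranges that overlapped between ZnCl2 and TPA. In both regions the control libraries ranked highest, at 95.8% and 95.9% in the former and 94.7% and 94.8% in the latter, where TPA gave 83.6% and 89.6% and ZnCl2 92.9% and 75.1%. Near PTMA, which encodes prothymosin alpha, 1 of 6 was called in all libraries, at 74.2% and 73.8% with TPA, 39.9% and 77.8% in the control and 52.5% and 21.6% with ZnCl2. The cluster near SIK1 was weak by contrast, with 1 of 8 called in all libraries and 4 of 8 in sequence with 9 or 10 repeated pieces of 10, and none of the 6 near EPS8L3 was called in all.

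Lists of genes with a known role were read by nearest start. Of 36 genes of zinc homeostasis (metallothioneins, zinc transporters and MTF1), 2 were the nearest gene of a member, the metallothioneins MT1A and MT1X, which bind Zn2+ and other metals. The region near MT1A, 4930 bp downstream of its start (chr16:56642671-56644520), held 4 GC boxes and 6 MRE cores in its central 500 bp. It ranked at 24.2% and 58.0% in the control, 3.39% in TPA replicate 1 with no call in TPA replicate 2, and 74.4% and 55.2% with ZnCl2. At equal list length it was called in control replicate 2 and in both ZnCl2 libraries, and in neither TPA library, an order in which the ZnCl2 and control ranges overlapped. The region near MT1X, 9416 bp downstream of its start (chr16:56691091-56692680), was at 9.08% and 26.6% in the control, 35.4% and 30.1% with TPA and 52.5% in ZnCl2 replicate 1, with no call in replicate 2.

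Immediate early genes, which cells transcribe within minutes of a stimulus, had 23 members near 12 of the 26 genes listed, and 12 of the 23 were called in all 6 libraries (52.2% of them, compared with 28.0% of all members). Of these 12, the percentile was higher with TPA for 4 and lower for none, and higher with ZnCl2 for 1 and lower for 2. Their median difference from the control was 3.15 points with TPA and -1.89 with ZnCl2, beside 2.81 and -1.35 over all 549. Near EGR1, a zinc-finger factor induced by growth signals (chr5:138487872-138494202), the percentile lay between 96.9% and 98.8% in the 6 libraries. Near BTG2, an antiproliferative gene also listed as a p53 target (chr1:203325661-203328660), it was 92.6% and 94.9% in the control, 98.0% and 98.3% with TPA and 91.7% and 90.8% with ZnCl2, higher in both TPA libraries than in the other 4.

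Genes of the glucocorticoid response had 16 members, 8 of them called in all 6 libraries, and the hormone was in the growth medium of all groups. Of the 8, 2 were higher and 1 lower with TPA, and none was higher or lower with ZnCl2. The member that was lower with TPA stood near NFKBIA (chr14:35340782-35343001), at 53.7% and 43.7% with TPA, 79.9% and 83.7% in the control and 91.2% and 69.3% with ZnCl2. The NFKBIA region that was gained with TPA was a different one, so that members assigned to the same gene moved in opposite directions. Near CEBPB, a basic leucine-zipper factor, 2 of 3 members were called in all libraries.

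The TGF-β pathway had 14 members near 5 of its 20 genes, 8 of them those of SMAD7, with 3 of 6 higher with TPA, 1 lower with ZnCl2 and 3 of the 14 gained with ZnCl2 at equal list length. KLF and SP factors had 13 members, and of the 5 called in all libraries 2 were higher and 2 lower with TPA and 1 was higher with ZnCl2. Near SP1, the founding GC-box factor (chr12:53370311-53373000), the percentile was 69.2% and 79.0% in the control, 23.9% and 54.6% with TPA and 80.7% and 62.1% with ZnCl2, lower in both TPA libraries than in all others. AP-1 factors had 7 members, and the 1 called in all libraries, near JUND (chr19:18273881-18283170), ranked at 96.6% and 97.9%, 92.5% and 89.3%, and 98.7% and 97.5%. TPA minus control was -6.39 points there, with both TPA libraries below the other 4.

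Basal epithelial genes had 5 members near ELF3, KRT17 and ID1, of which 3 were called in all libraries, 1 of them higher with TPA and 1 lower with ZnCl2, in both cases the ELF3 region described above. The p53 targets had 4, with 3 in all libraries, of which 1 (near BTG2) was higher and 1 lower with TPA and 1 was lower with ZnCl2. CTCF and cohesin genes had 2 members, 1 near CTCF and 1 near WAPL, and neither was called in all libraries. YAP and TEAD genes and S100 genes had 1 member each, near AMOTL2 and S100A6, and no member had a gene of the hemidesmosome or of the EGF receptor family as its nearest. These lists were small, and beside the background of 22.9% and 15.8% for TPA none of their counts stands for a result about the list.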

How the data were processed

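ATAC-seq gave chromatin accessibility in 6 libraries of MCF10A cells, 2 for each of the 3 groups, as the labels assign them. Per the labels and the study's methods, the authors checked reads with FastQC 0.11.8, trimmed them with BBDuk, mapped them to hg38 with HISAT2 2.1.0, sorted them with SAMtools 1.8 and called open regions in each library with HMMRATAC, whose version is not given in the sources used here. Each library was sequenced in 2 runs that were combined. Each deposited list holds positions of open regions and, in column 5, a score of whole numbers of at least 30. Which HMMRATAC score this is was not stated, so the score served only to rank regions within a library. Read counts were not analysed here, the depth is unknown, and no counting error could be given.

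Lists were merged on chromosomes 1 to 22 and X and annotated with GENCODE release 44. A percentile is the percentage of a library's regions with a strictly lower score, the highest call in a merged region counting, and a width is the sum of the calls. At equal list length the 18883 highest scores of each library were kept, with ties broken at random from a fixed seed. Group differences and the step over TPA, control and ZnCl2 were tested by two-sided exact permutation of the libraries, with Benjamini-Hochberg adjustment within families of 6 measures, 18 pairs, 5 class comparisons or 4 motifs. Scripts were tested on simulated lists. Python 3.11.15, NumPy 2.4.6, pandas 2.3.3, pysam 0.24.0 and Matplotlib 3.10.9 were used.

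The members, the gene lists and the order TPA, control and ZnCl2 used for the steps were chosen with earlier results of these data known. Named members were the 5 with the highest lowest percentile, the 5 with the widest ZnCl2 minus TPA difference in each order of the groups, the 2 with the highest mean percentile among those gained or lost with each treatment, those near zinc homeostasis genes and those of the genes with most members. Other members named from the gene lists, the CTCF members with their sequences, which go beyond the rule that sequence be shown for the members with extreme or ordered percentiles, and the comparisons by motif, with and without repeated sequence, were picked after values were seen. Alternatives left out a library, changed the overlap, the upper 50% of the lists, the GC and distance limits or the starts used, or blocked by replicate number. Some items are not reported here.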

Additional observations from a re-analysis of the deposited data

Results flagged for a closer look

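For 3 measures of the GC-rich intergenic regions, both TPA libraries lay below both control libraries and both ZnCl2 libraries lay above them. Between ZnCl2 and TPA, the percentage of members called at equal list length differed by 10.6 points, the share of members among all open regions by 1.11 points, and the median percentile of members minus that of GC-poor regions by 14.8 points. For the percentage called and for the median percentile, no step apart from that of other GC-rich regions was detectable. The share of GC-rich regions inside genes among all open regions ran in the same order, also without overlap. A step in the share of the members apart from theirs was not tested. The 3 measures were picked out because the treatments moved away from the control in opposite directions in every library. By that criterion the difference between the effects of the treatments was not tested. The effects share the same 2 control libraries. No group held enough libraries to look for single libraries far from the rest.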

How the results depend on the processing

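Of 487 values under alternatives, 380 kept their direction and side of the threshold or stayed near the reported value. The cause was not tested for those below. Replicate numbers gave no pairing common to the groups. Deviations of same-numbered libraries correlated at 0.165 for control and TPA, -0.330 for control and ZnCl2 and -0.0576 for TPA and ZnCl2, over 15851 regions. The shortest lists, those of ZnCl2 replicate 2 and control replicate 1, carry different numbers, and the part of list length in these values was not tested. Whether same-numbered libraries shared a batch was not tested either. With a replicate block the steps of 5.32, 0.554 and 7.39 points (percentage called at equal length, share of open regions, rank difference) had p = 0.0556 in an exact permutation test, the smallest that 36 arrangements allow. With the block 200 members were higher and 115 lower with TPA and 35 higher and 78 lower with ZnCl2. With crossed numbers, a pairing chosen after seeing the data, 136 were higher and 174 lower with ZnCl2.

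The step in the percentage called was 0.916 in whole lists and 5.32 at equal length. It was 1.57 in the upper 50% of the equal lists (p = 0.111, exact permutation test) and 8.96 with at least 50% of a region covered (p = 0.0667, exact permutation test). TPA minus control was -0.0764 points in whole lists but 0.967 in the upper 50%, 0.257 for members 5 to 50 kb from a start and 1.32 without repeated sequence, and at equal length it was 0.356 in the upper 50%. In whole lists ZnCl2 minus TPA and the step were -1.001 and -0.501 without repeated sequence. For members called in a control library ZnCl2 minus control, ZnCl2 minus TPA and the step were -8.29, -2.79 and -1.40. The median percentile, lower with ZnCl2 as reported, was higher than in the control by 2.96 and than with TPA by 0.363 at equal length (step 0.181), and by 0.648 and 0.00372 over the members called in each library (step 0.00186). With a GC limit of 57% ZnCl2 minus control was 0.190. The rank difference rose by 2.90 a step over the members called in each library (p = 0.0667, exact permutation test).

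Counts moved over 1.5 times as follows. Apart from whole lists, no share over all merged regions was computed beside these counts. Whole lists gave 31 gained and 28 lost with TPA and 10 and 5 with ZnCl2. At equal length 106 ranked higher with ZnCl2. The upper 50% gave 24 lost, 80 higher and 36 lower with TPA, and 36 gained, 5 lost, 17 higher and 40 lower with ZnCl2. At least 50% covered gave 11 gained, 56 higher and 25 lower with TPA, and 6 lost, 6 higher and 24 lower with ZnCl2. A GC limit of 57% gave 2 gained, 22 lost, 55 higher and 37 lower with TPA, and 32 gained, 2 lost, 9 higher and 20 lower with ZnCl2. From 5 to 50 kb, 11 were gained and 53 lower with TPA and 50 gained with ZnCl2.

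Leaving out 1 library at a time, the whole-list percentages gave -18.9 to 18.8 for TPA minus control, -23.9 to 27.4 for ZnCl2 minus control, -23.9 to 27.5 for ZnCl2 minus TPA and steps of -10.2 to 11.8. Median percentiles gave -3.73 to 13.2, -15.7 to 12.1, -21.1 to 6.35 and -9.78 to 1.89 in the same order. Widths gave -1020 to 165 bp for TPA minus control and -380 to 775 bp for ZnCl2 minus control. Steps ranged from 3.95 to 6.28 for the percentage at equal length, 0.324 to 0.707 for the share and 7.15 to 8.79 for the rank difference. With TPA, 41 to 56 members were gained, 60 to 106 lost, 173 to 358 higher and 102 to 269 lower. With ZnCl2, 123 to 193 were gained, 22 to 45 lost, 30 to 380 higher and 78 to 346 lower.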
